A study of Mus musculus with 36 samples.

Results

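The genes described here encode 10 enzymes of hepatic glucose production and of the exchange of amino groups that feeds it: Pck1, Pck2, G6pc, Fbp1, Pcx, Got1, Got2, Gpt, Gpt2 and Ldha. They were chosen by name, with a rule that uses no measured value, from the 21889 gene symbols of a table of liver mRNA levels, and all 10 were present and passed the filter on low values. The table holds 36 male C57BL/6J mice (labelled C57BL/6), 3 at each of 12 ages, and asks how the liver's energy metabolism changes as nutrition passes from the placenta to milk and then to solid food. Day -2 is late gestation, Day 0 is birth before any milk was taken, Day 1 is a full day later, Days 1, 3, 5, 10, 15 and 20 are suckling ages, and Days 25, 30, 45 and 60 follow weaning onto standard chow. The authors state that solid food gradually takes the place of milk as weaning nears, so late suckling need not mean milk alone. Animals of Day 3 and older were sampled in the morning, whereas the hour at Days -2, 0 and 1 followed the pregnancy or the birth, so that clock time and age cannot be told apart at these ages. No treatment or genotype differed between the groups, each mouse gave 1 sample, and the labels name no batch.

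Gluconeogenesis builds glucose from lactate, amino acids and glycerol. Pyruvate is carboxylated in mitochondria by pyruvate carboxylase (Pcx), the oxaloacetate is turned into phosphoenolpyruvate by a cytosolic (Pck1) or mitochondrial (Pck2) carboxykinase, and fructose 1,6-bisphosphatase (Fbp1) and glucose 6-phosphatase (G6pc) complete the route to free glucose. Alanine aminotransferases (Gpt in the cytosol, Gpt2 in mitochondria) and aspartate aminotransferases (Got1 and Got2, likewise) connect amino acids to pyruvate and oxaloacetate, and lactate dehydrogenase A (Ldha) interconverts lactate and pyruvate. In mammals the fetus receives glucose from the mother, and glucagon and cyclic AMP act on this pathway at birth.

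Levels are FPKM, a count of sequenced fragments relative to transcript length and library size. They are given as mean ± SD of 3 mice unless each mouse is named, and each difference is on the log2(FPKM + 1) scale with its SE, which understates the change of low genes. Differences were tested with limma over the 11149 genes that reached a mean of 1 FPKM in at least one age, and adjusted p-values are Benjamini-Hochberg values over all of them. Summed FPKM per mouse was between 353712 and 450597, and the relative depth read from the steps of low values was between 0.903 and 1.18. The absolute number of fragments behind a value is not given by the table. Albumin and the other hepatocyte markers (10 of 10 in the table) summed to 12300 to 13800 FPKM at Day -2 and to 55500 to 141000 FPKM at all later ages, and erythroid markers (10 of 12 in the table) summed to 3560 to 4430 FPKM at Day -2 and 65.8 to 72.1 FPKM at Day 60. In such bulk samples fewer cells of a type and less RNA per cell cannot be told apart, and the part of this change in makeup in the results below was not tested. Day 0 mouse 1 stands apart: its 18 skeletal muscle markers summed to 1470 FPKM, against 6.26 and 6.29 FPKM in the other mice of that age, and 15 of the 18 had their highest level of all 36 mice there. The differences of members that passed the test at birth or over the first day are therefore given with and without it. Those of other genes are given with it only. Muscle markers also summed to 107 FPKM in Day 10 mouse 1, against 10.8 and 2.47 FPKM in the other mice of that age. Pancreas markers were uneven among mice of one age (4.94 to 27900 FPKM at Day 60), and kidney markers reached 60.8 FPKM in Day 1 mouse 2. In Day 20 mouse 2 the pancreas markers summed to 10300 FPKM, against 64.4 and 60.6 FPKM in the others. The part of these tissues in the members' values was not tested.

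The promoters of Pck1, G6pc and Fbp1 are shown because these mRNAs had the steepest rises at birth. They are RefSeq windows of mouse build GRCm38.p6, 250 bases before to 50 after the start of transcription, written on the gene's strand. Capitals mark each stretch that matched a searched motif.
Pck1, chr2:173152823-173153122, plus strand: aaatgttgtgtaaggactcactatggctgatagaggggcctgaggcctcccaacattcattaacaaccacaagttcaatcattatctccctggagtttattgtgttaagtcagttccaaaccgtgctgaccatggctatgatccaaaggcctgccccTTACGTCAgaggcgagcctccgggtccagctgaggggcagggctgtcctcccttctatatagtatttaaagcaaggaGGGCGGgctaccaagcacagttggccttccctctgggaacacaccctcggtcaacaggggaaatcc
G6pc, chr11:101367466-101367765, plus strand: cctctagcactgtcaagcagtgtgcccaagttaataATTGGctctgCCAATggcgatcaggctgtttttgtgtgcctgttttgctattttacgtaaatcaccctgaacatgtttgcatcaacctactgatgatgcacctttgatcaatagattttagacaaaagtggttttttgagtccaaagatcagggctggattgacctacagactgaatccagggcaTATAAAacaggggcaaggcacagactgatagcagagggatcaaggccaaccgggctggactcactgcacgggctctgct
Fbp1, chr13:62888233-62888532, minus strand: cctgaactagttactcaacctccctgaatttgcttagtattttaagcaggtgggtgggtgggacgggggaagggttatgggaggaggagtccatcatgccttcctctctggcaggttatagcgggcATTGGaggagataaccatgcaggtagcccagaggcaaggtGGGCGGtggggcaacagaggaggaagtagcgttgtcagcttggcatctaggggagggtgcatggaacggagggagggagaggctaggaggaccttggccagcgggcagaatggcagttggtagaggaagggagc

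Motifs were searched on both strands of the 11 windows found for 9 of the 10 genes, Gpt being the gene without an entry. They were the cyclic AMP response element (CRE, TGACGTCA), its variant TTACGTCA, the half-site TGACG, the TATA box TATAAA, the CCAAT box CCAAT, the GC box GGGCGG, the E-box CACGTG, the hypoxia response core ACGTG, the FOXO site GTAAACA and the amino acid response element TGATGNAAT. The half-site overlaps both CRE forms, and the hypoxia core overlaps the E-box. The Pck1 window held TTACGTCA 93 bases before the start, a form present in 0.499% of all 32851 windows of this length. The G6pc window held TATAAA 29 bases before the start, as 13.6% of windows did on either strand. Ldha was the member with the full CRE, 12 bases before the start (1.79% of windows), and its first window also held 2 E-boxes (7.15% of windows). The FOXO site (3.65%) and the amino acid response element (0.965%) had no match in the members' windows, which says only that these letters are not there.

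**Figure D1:**
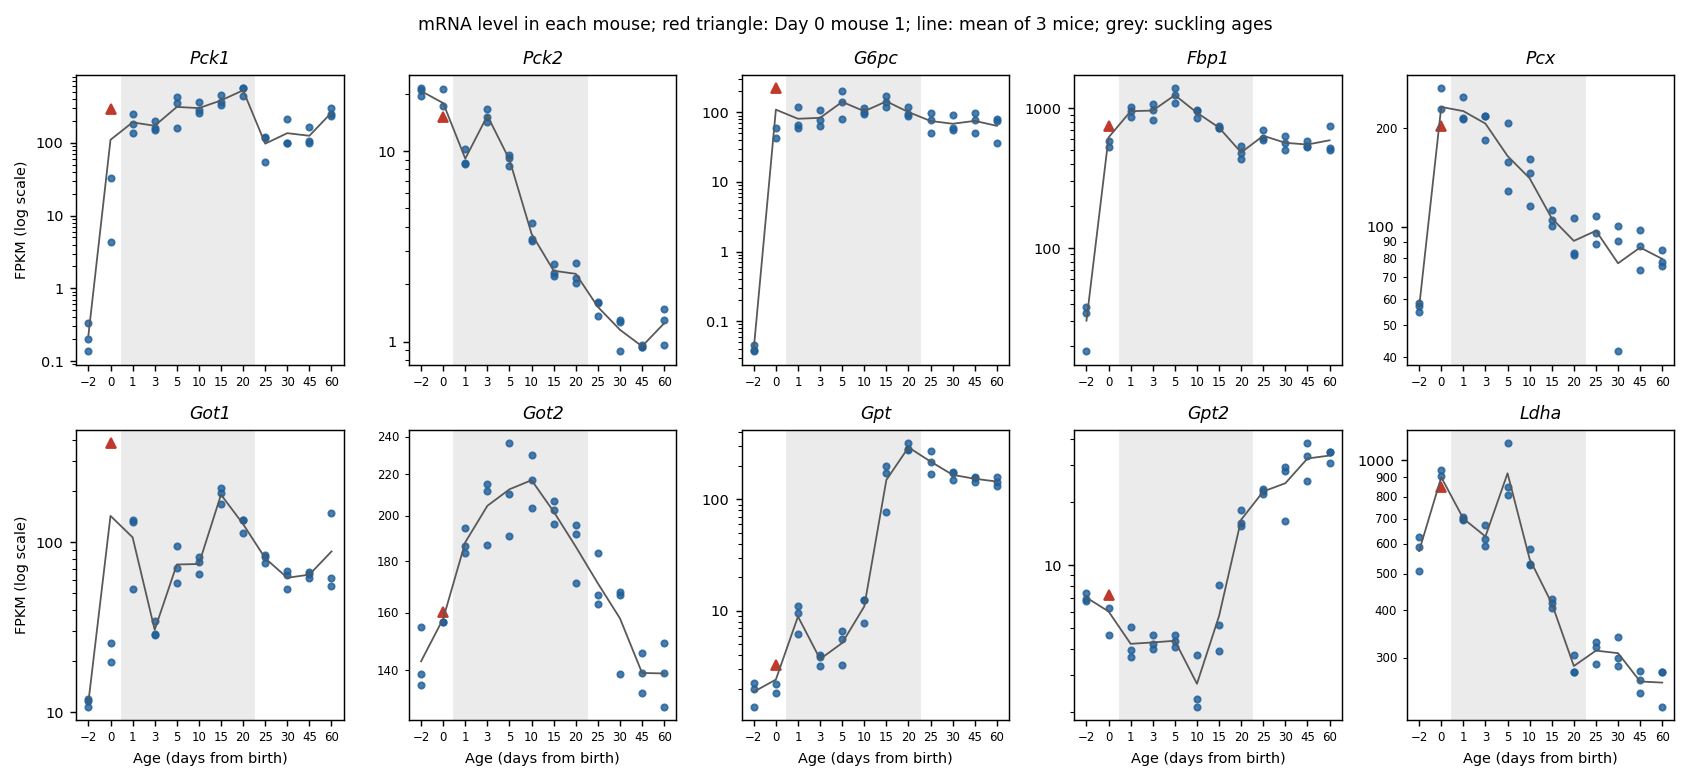
FPKM of each of the 10 mRNAs (y axis, log scale, its own range per panel) in every mouse against age in days from birth (x axis, ages evenly spaced and not to scale). Points are mice, the red triangle is Day 0 mouse 1, the line joins the means of 3 mice and the grey band marks the suckling ages; Pck1, G6pc and Fbp1 climb from Day -2 to Day 0, Gpt climbs between Day 10 and Day 20, and Pck2 falls from a mean of 20.6 FPKM before birth to one of 0.946 FPKM at Day 45.

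Set against Day 60, all 10 mRNAs differed at 1 or more of the 11 remaining ages, as did 90.7% of all genes tested, so the count itself does not set them apart. These comparisons share the 3 mice of Day 60. What differed among the members was the timing. Pck2 was above Day 60 at 8 ages and Ldha at 8, Gpt2 was below it at 9, Gpt was below it at 6 and above it at 1, and Got1 differed from Day 60 only at Day -2. Got2 was above Day 60 at 7 ages but spanned only 1.56-fold between its highest and lowest age, whereas Gpt spanned 156-fold and Fbp1 41.2-fold.

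The carboxykinases moved in opposite ways over the first day and from early (Days 1, 3 and 5) to late suckling (Days 15 and 20). On the deposited values both were higher over the suckling ages than after weaning. Pck1 (chromosome 2, 172978549 to 172984774, plus strand, NCBI37/mm9) is the cytosolic enzyme and was nearly silent before birth, at 0.136, 0.338 and 0.204 FPKM in the mice of Day -2. At Day 0 it was 293, 4.37 and 32.4 FPKM in mice 1, 2 and 3, so that all 3 lay above every mouse of Day -2 but spread widely. Over the suckling ages the mice read 183, 137 and 252 FPKM at Day 1, 151, 202 and 161 FPKM at Day 3, and 157, 348 and 428 FPKM at Day 5. They went on to 255, 359 and 285 FPKM at Day 10, 459, 359.8 and 327 FPKM at Day 15, and 441, 568 and 571 FPKM at Day 20, the highest age. The mice of Day 25 held 120.1, 54.9 and 117 FPKM, all below every mouse of Day 20. Levels then were 98.5, 209.5 and 98.8 FPKM at Day 30, 167, 100.5 and 107.5 FPKM at Day 45, and 245, 303 and 232 FPKM at Day 60, and all mice of Day 60 lay above all of Day 45.

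Pck1 rose at birth by 4.94 ± 0.70 (log2 difference ± SE, adjusted p = 1.73e-06), and by 3.45 without Day 0 mouse 1 (adjusted p = 2.13e-06). It rose again over the first day of suckling by 2.31 ± 0.70 (adjusted p = 0.0142), a call that was lost without Day 0 mouse 2 (0.91, adjusted p = 0.206) or mouse 3 (2.23, adjusted p = 0.053) and was larger without mouse 1 (3.80, adjusted p = 1.02e-06). From early (Days 1, 3 and 5) to late suckling (Days 15 and 20) it rose by 1.09 ± 0.45 (adjusted p = 0.0323). That call was lost without a filter on low values (adjusted p = 0.0513) and when Day 1 mouse 2, Day 5 mouse 1, Day 15 mouse 1, Day 20 mouse 2 or Day 20 mouse 3 was left out (0.95 to 1.06, adjusted p up to 0.0691), and the rise was 1.70 once every library was set to the same upper quartile (adjusted p = 0.00187). Between Day 20 and Day 25 it fell by 2.50 ± 0.70 on the log2 scale (adjusted p = 0.0255), from 526.7 ± 74.5 to 97.3 ± 36.8 FPKM, a 5.41-fold lower mean. The fall lost its call without Day 20 mouse 2 (adjusted p = 0.0817), Day 20 mouse 3 (adjusted p = 0.0845) or Day 25 mouse 2 (adjusted p = 0.14), with a log2 difference of -2.44, -2.43 and -2.13.

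Pck2 (chromosome 14, 56159103 to 56168854, plus strand), the mitochondrial enzyme, was highest in late gestation. The mice of Day -2 held 19.5, 21 and 21.5 FPKM and those of Day 0 held 15.0, 17.3 and 21.2 FPKM, and these ages overlapped. The mice of Day 1 held 8.61, 10.2 and 8.52 FPKM, all below Day 0, those of Day 3 held 14.2, 16.6 and 15.1 FPKM, all above Day 1, and those of Day 5 held 8.33, 9.52 and 9.16 FPKM, again all below Day 3. This dip and return between neighbouring ages did not overlap at any step. From there the mean went down, with 3.67 ± 0.449 FPKM at Day 10, then 2.27 ± 0.291 FPKM at Day 20 and lastly 0.946 ± 0.0169 FPKM at Day 45. Erythroid markers were also lower at Day 1 than at Day 0 and Day 3, with median sums of 3650 FPKM at Day -2, 1770 FPKM at Day 0, 734 FPKM at Day 1, 1310 FPKM at Day 3, 766 FPKM at Day 5 and 199 FPKM at Day 10, and their part in the Pck2 values was not tested. Pck2 fell by 0.89 ± 0.12 over the first day (adjusted p = 1.91e-06) and by 1.84 ± 0.08 from early to late suckling (adjusted p = 1.82e-18).

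Glucose 6-phosphatase completes both gluconeogenesis and the breakdown of glycogen to glucose. G6pc (chromosome 11, 101228875 to 101239217, plus strand) had 0.0366, 0.0381 and 0.0451 FPKM at Day -2, close to nothing, and 226, 42.4 and 59.8 FPKM at Day 0. Every later mouse lay between 35.8 and 206 FPKM. At birth it rose by 6.34 ± 0.42 (adjusted p = 8.26e-13), and by 5.63 without Day 0 mouse 1 (adjusted p = 1.48e-12). The ratio of mean FPKM was 2740, or 1280 without that mouse, and its denominator is a level near the limit of what was measured. The highest mean was at Day 15 (144 ± 25.9 FPKM) and the ranges of neighbouring ages in the order of levels overlapped except above Day -2. From Day 0 to Day 1 it changed by -0.11 ± 0.42 (adjusted p = 0.869), and by 0.61 without mouse 1 (adjusted p = 0.202).

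Fructose 1,6-bisphosphatase removes a phosphate from fructose 1,6-bisphosphate on the way to glucose. Fbp1 (chromosome 13, 62966113 to 62989642, minus strand) was 18.2, 34.4 and 38.0 FPKM at Day -2, 744, 532 and 582 FPKM at Day 0, and 873, 1025 and 964 FPKM at Day 1. Each of these steps separated all 3 mice of one age from all of the next. The peak was at Day 5, with 1086, 1405 and 1239 FPKM, and the lowest age after birth was Day 20, with 433, 482 and 535 FPKM. Fbp1 rose at birth by 4.37 ± 0.19 (adjusted p = 4.57e-17) and over the first day by 0.63 ± 0.19 (adjusted p = 0.0111), and fell by 0.81 ± 0.12 from early to late suckling (adjusted p = 7.07e-07). The first-day rise of Fbp1 lost its call with a common upper quartile (0.48, adjusted p = 0.0762) and without Day 0 mouse 2 (0.53, adjusted p = 0.0589), and the later fall lost it with a common upper quartile (-0.21, adjusted p = 0.179). Mice of Day 25 (596, 617 and 696 FPKM) were all above those of Day 20, by 0.40 ± 0.19, which did not pass the test (adjusted p = 0.234).

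Pyruvate carboxylase supplies oxaloacetate to gluconeogenesis and to the citric acid cycle. Pcx (chromosome 19, 4510472 to 4621752, plus strand) was 57.2, 55.1 and 58.4 FPKM at Day -2 and 202, 228 and 265 FPKM at Day 0, the peak. It rose at birth by 2.00 ± 0.21 (adjusted p = 1.01e-08), stayed at 225 ± 20.0 FPKM at Day 1 and 206 ± 19.1 FPKM at Day 3, and fell by 0.99 ± 0.14 from early to late suckling (adjusted p = 1.85e-07), or by 0.39 with a common upper quartile (adjusted p = 0.00227). After weaning the means were between 77.3 and 97.2 FPKM. At Day 30 mouse 1 held 41.6 FPKM against 100.2 and 90.2 FPKM in the others. In the order of Pcx levels by age, only Day 10 and Day 15 were neighbours whose mice did not overlap.

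Among the members, the alanine aminotransferase Gpt had the largest difference between early and late suckling. Gpt (chromosome 15, 76527163 to 76530104, plus strand), the cytosolic enzyme and the one measured in serum as a sign of liver injury, was 1.38, 2.27 and 2.00 FPKM at Day -2 and 3.25, 1.83 and 2.19 FPKM at Day 0. It was 9.58, 6.18 and 11 FPKM at Day 1, all above Day 0, then 3.20, 4 and 3.89 FPKM at Day 3 and 3.30, 5.63 and 6.54 FPKM at Day 5. At Day 10 the mice held 7.82, 12.5 and 12.6 FPKM. At Day 15 they held 77.6, 174 and 198 FPKM and at Day 20 they held 283, 275 and 321 FPKM, so that each of the last steps separated the ages fully. Day 15 stood 13.6-fold above Day 10 in mean FPKM, and its mice spread more than those of Day 20 (SD 63.5 against 24.7 FPKM). From 293 ± 24.7 FPKM at Day 20 the mean came down, with 219 ± 50.8 FPKM at Day 25 and then 145 ± 12.9 FPKM at Day 60.

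Gpt rose over the first day by 1.52 ± 0.26 (adjusted p = 6.18e-05) and from early to late suckling by 4.97 ± 0.17 (adjusted p = 1.18e-20). At weaning it differed by -0.44 ± 0.26 (adjusted p = 0.373). Gpt2 (chromosome 8, 88016475 to 88051459, plus strand), the mitochondrial enzyme, lagged behind: it was 3.74, 2.12 and 2.31 FPKM at Day 10, 3.92, 8.05 and 5.20 FPKM at Day 15, 15.9, 18.3 and 15.3 FPKM at Day 20, and 23, 21.8 and 22.6 FPKM at Day 25. Each of these steps was upward in all 3 mice against all 3. Its highest mean was 33.3 ± 2.20 FPKM at Day 60, where Gpt stood at 49.4% of its own highest age. Gpt2 rose by 1.02 ± 0.13 from early to late suckling (adjusted p = 6.15e-08), or by 1.53 with a common upper quartile (adjusted p = 3.52e-12), and was 2.18 ± 0.09 lower over the suckling ages than after weaning (adjusted p = 1.29e-18).

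**Figure D2:**
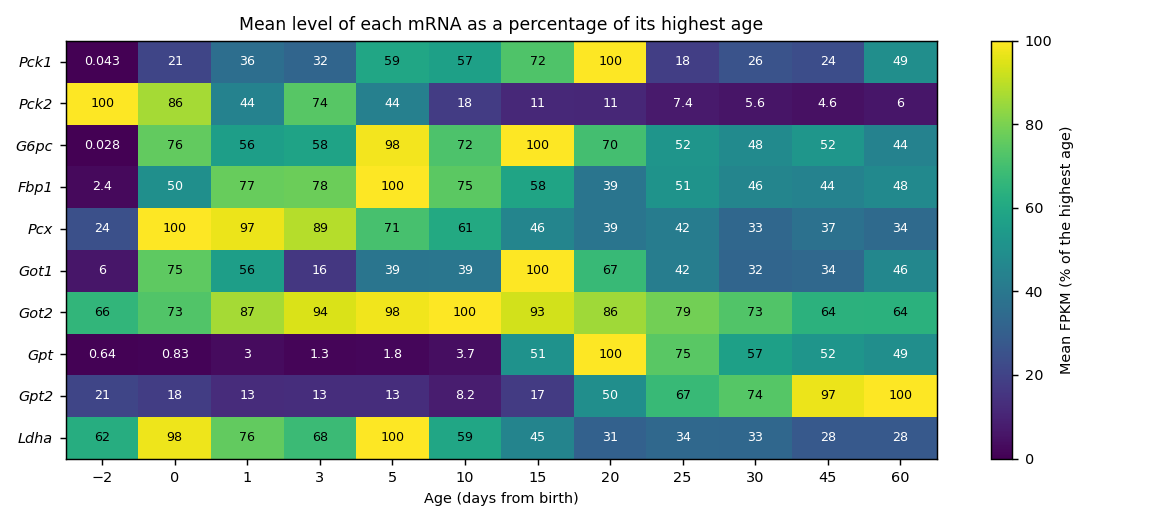
Mean FPKM of each mRNA at each age as a percentage of its own highest age (colour and printed numbers, 3 mice per age, ages in days from birth). The highest age is Day -2 for Pck2, Day 0 for Pcx, Day 5 for Fbp1 and Ldha, Day 10 for Got2, Day 15 for G6pc and Got1, Day 20 for Pck1 and Gpt, and Day 60 for Gpt2.

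The aspartate aminotransferases take part in the malate-aspartate shuttle, which carries reducing equivalents across the mitochondrial membrane. Got1 (chromosome 19, 43574242 to 43599095, minus strand), the cytosolic enzyme, was 12.0, 11.6 and 10.8 FPKM at Day -2. At Day 0 mouse 1 held 383 FPKM, the highest Got1 level of all 36 mice, and the others held 19.7 and 25.5 FPKM. Day 1 gave 131, 53.3 and 136 FPKM and Day 3 gave 34.3, 28.4 and 29 FPKM, all below Day 1. The mice of Day 5 had 57.2, 70.3 and 94.3 FPKM, those of Day 10 had 81.4, 76.8 and 65.1 FPKM, and those of Day 15 had 166.5, 209.5 and 194 FPKM, all above Day 10. Later levels were lower, at 134, 114 and 136 FPKM at Day 20, 83.9, 75.6 and 81.9 FPKM at Day 25, and 55, 61.8 and 148 FPKM at Day 60, where mouse 3 was far above the others.

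Got1 rose at birth by 2.25 ± 0.58 (adjusted p = 0.00184), and by 0.91 without Day 0 mouse 1 (adjusted p = 0.017), which takes the ratio of mean FPKM from 12.4 to 1.97. From Day 0 to Day 1 it differed by 0.74 ± 0.58 (adjusted p = 0.332), and by 2.08 without that mouse (adjusted p = 1.01e-05). It rose from early to late suckling by 1.35 ± 0.37 (adjusted p = 0.0019). Got2 (chromosome 8, 98388034 to 98412447, minus strand), the mitochondrial enzyme, was the steadiest of the 10. It was 135, 155 and 139 FPKM at Day -2, 203.7, 230.1 and 217 FPKM at Day 10, and 129, 139 and 149 FPKM at Day 60. The suckling ages were above the ages after weaning by 0.41 ± 0.05 (adjusted p = 2.49e-09), a difference that scaling to a common upper quartile brought to -0.0001 (adjusted p = 0.999).

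Lactate dehydrogenase A favours the making of lactate from pyruvate and is abundant in glycolytic tissues. Ldha (chromosome 7, 54096845 to 54110997, plus strand) was the most abundant member before birth, at 508, 627 and 589.6 FPKM at Day -2, and held 67.9% of the summed FPKM of the 10 mRNAs there. It was 848, 909 and 944 FPKM at Day 0, 848, 1110 and 808 FPKM at Day 5, and 304, 275 and 275 FPKM at Day 20, after which every mouse lay between 222 and 339 FPKM. Ldha rose at birth by 0.65 ± 0.11 (adjusted p = 2.92e-05), fell by 0.36 ± 0.11 over the first day (adjusted p = 0.0167) and fell by 1.09 ± 0.07 from early to late suckling (adjusted p = 1.04e-13). The first-day fall of Ldha lost its call with libraries scaled to a sum of 1000000 (-0.26, adjusted p = 0.0555), without Day 0 mouse 3 (-0.33, adjusted p = 0.0725) and without Day 1 mouse 1 (-0.36, adjusted p = 0.0516), and the later fall was -0.49 with a common upper quartile (adjusted p = 2.51e-05). At Day 60 it was 257.5 ± 30.4 FPKM and 15.5% of the summed level. Ldha has near-identical pseudogene copies, and how shared reads were assigned is not given in the sources used here.

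**Figure D3:**
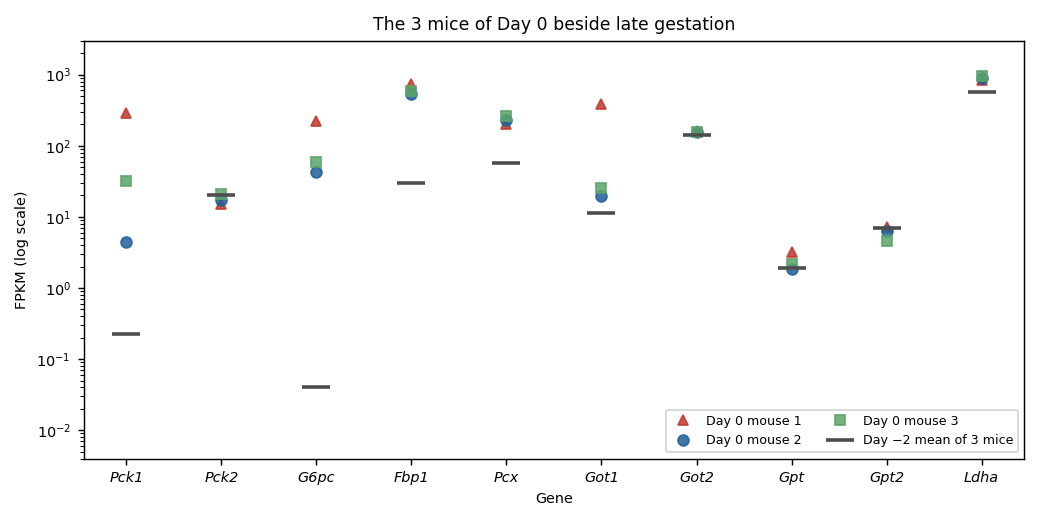
FPKM (y axis, log scale) of the 10 mRNAs in the 3 mice of Day 0, with the Day -2 mean of 3 mice as a bar. Mouse 1 lies far above the others for Pck1 (293 FPKM), G6pc (226 FPKM) and Got1 (383 FPKM) and among or near them for the other 7 genes.

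Day 0 mouse 1 was more than 2-fold above both other mice of its age for 3 of the 10 members (30.0%), for 7 of 83 further genes of the pathway (8.43%) and for 313 of all 11149 genes tested (2.81%). Its level over the mean of the others was 16 for Pck1, 16.9 for Got1 and 4.43 for G6pc, whereas for Pcx, Pck2, Got2 and Ldha it was between 0.781 and 1.02. Tyrosine aminotransferase (Tat), at 126 FPKM against 4.11 and 9.21 FPKM, and serine dehydratase (Sds), at 96.6 FPKM against 3.28 and 3.57 FPKM, were also high in this mouse, beside alpha-skeletal actin (Acta1) at 636 FPKM against 0.778 and 0.217 FPKM. The hepatocyte enzyme carbamoyl phosphate synthetase (Cps1) was not, at 124 FPKM against 141 and 140.0 FPKM. The part of the muscle RNA in the Pck1, G6pc and Got1 values of this mouse was not tested. With 2 mice left, the Day 0 means were 18.4 FPKM for Pck1, 51.1 FPKM for G6pc and 22.6 FPKM for Got1.

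At birth, 6 of the 10 members rose (Pck1, G6pc, Fbp1, Pcx, Got1 and Ldha) and 0 fell by limma, also at an unadjusted p under 0.05, while 13.1% of all genes tested rose and 41.4% fell. The median difference was 1.33 over the members and -0.29 over all genes. The same number rose without Day 0 mouse 1. Fbp1 then rose by 4.23 (adjusted p = 2.27e-15), Pcx by 2.09 (adjusted p = 6.2e-08) and Ldha by 0.69 (adjusted p = 7.52e-05). The rest of the members moved little: Pck2 differed by -0.21 (adjusted p = 0.13), Got2 by 0.14 (adjusted p = 0.228), Gpt by 0.24 (adjusted p = 0.45) and Gpt2 by -0.21 (adjusted p = 0.398).

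Over the first day of suckling 3 members rose (Pck1, Fbp1 and Gpt) and 2 fell (Pck2 and Ldha), beside 23.7% of all genes rising and 7.88% falling. This comparison and the one at birth share the mice of Day 0. The members' median was 0.11 and that of all genes 0.19. Without Day 0 mouse 1, Got1 joined the rising genes and the count was 4. From early to late suckling 4 members rose (Pck1, Got1, Gpt and Gpt2) and 4 fell (Pck2, Fbp1, Pcx and Ldha), whereas 8.31% of all genes rose and 66.1% fell, with a median of 0.14 against -0.45. With a common upper quartile the counts were 6 and 3.

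Between Day 20 and Day 25 only Pck1 passed the limma test, as a fall, and 0 members rose, where 3.94% of all genes rose and 3.26% fell. At an unadjusted p under 0.05 the counts were 2 rising and 2 falling. Pck2 missed the threshold at -0.37 (adjusted p = 0.0524), and it passed, as a fall, in all 7 other settings of pseudocount, scaling, filter and model that were run with every mouse. Over all suckling ages against all ages after weaning, 7 members were higher (Pck1, Pck2, G6pc, Fbp1, Pcx, Got2 and Ldha) and 2 lower (Gpt and Gpt2), beside 68.1% and 11.7% of all genes. The median of all genes was itself 0.39 and that of the members 0.57, and with a common upper quartile 3 members were higher (Pck2, Pcx and Ldha) and 2 lower. Under that scaling Pck1 went from 1.03 to 0.62 (adjusted p = 0.0794), G6pc from 0.60 to 0.19 (adjusted p = 0.397) and Fbp1 from 0.54 to 0.13 (adjusted p = 0.222), while Pcx went from 0.81 to 0.40 (adjusted p = 2.6e-05) and Ldha from 0.94 to 0.53 (adjusted p = 1.38e-08). Gpt was 2.90 ± 0.12 lower during suckling (adjusted p = 5.79e-19), although it had reached its peak before weaning.

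Against the ages before milk (Days -2 and 0), the suckling ages had 7 members higher (Pck1, G6pc, Fbp1, Pcx, Got1, Got2 and Gpt) and 2 lower (Pck2 and Ldha), where 27% of all genes were higher and 40.7% lower. The differences of Pck1 (5.40), G6pc (3.48), Gpt (2.86) and Fbp1 (2.65) stood against a median of -0.10 for all genes. Without Day 0 mouse 1 they were 6.14, 3.84, 2.94 and 2.72. Day -2 against Day 60 gave the 2 ends of the series. Pck2 (3.27 ± 0.12) and Ldha (1.16 ± 0.11) were higher in late gestation and 7 members were lower, led by Pck1 (-7.73 ± 0.70), G6pc (-5.88 ± 0.42) and Gpt (-5.67 ± 0.26), where 56.4% of all genes were higher and 18.6% lower. Got2 differed by 0.04 ± 0.10 (adjusted p = 0.718), and the lower level of Pcx (-0.48, adjusted p = 0.0408) lost its call when any 1 of the 6 mice of these ages was left out or no filter was used. With a common upper quartile that difference was -1.07 for Pcx (adjusted p = 1.23e-06) and 0.55 for Ldha (adjusted p = 0.000766).

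**Figure D4:**
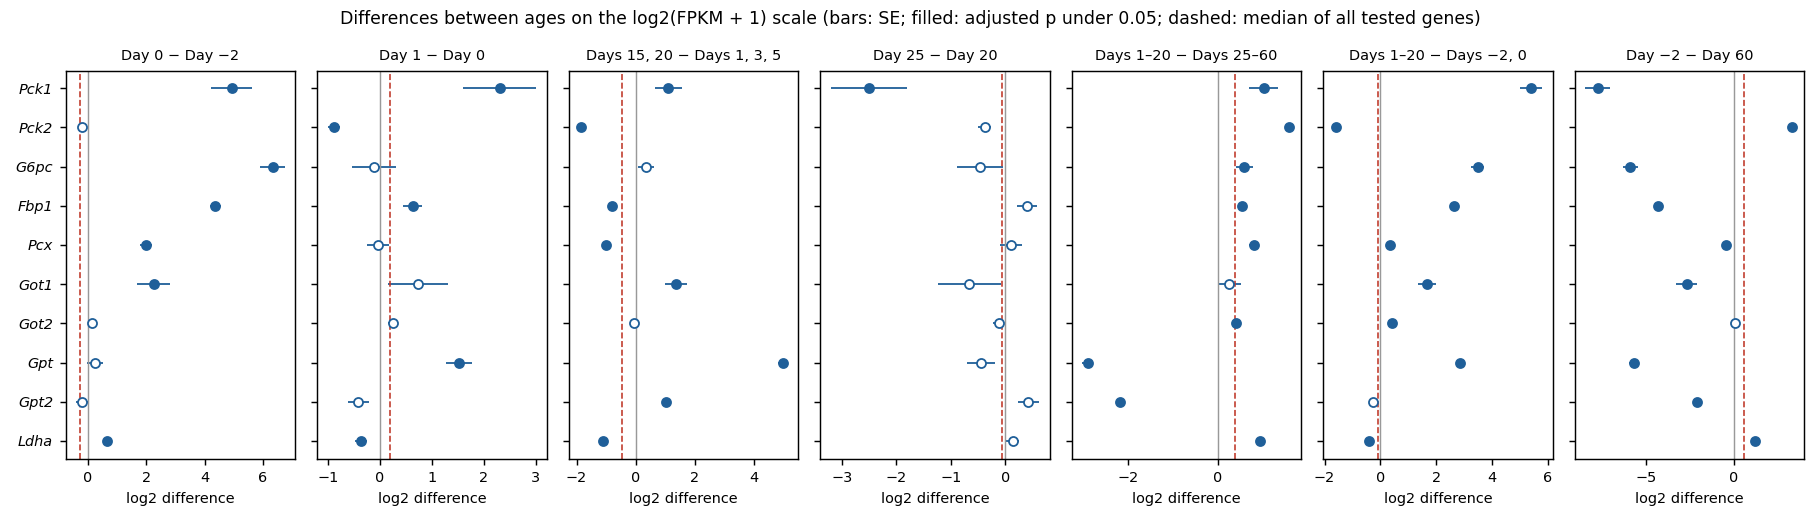
Log2 differences on the log2(FPKM + 1) scale (x axis, its own range per panel) of the 10 mRNAs for 7 comparisons of ages, with SE bars, filled where the limma adjusted p was under 0.05. The dashed line is the median of all 11149 genes tested; Pck1, G6pc and Fbp1 lie furthest right at birth, Gpt in late against early suckling, and only Pck1 is filled between Day 20 and Day 25.

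Each cytosolic enzyme was also set against its mitochondrial counterpart within a mouse, as the log2 ratio of FPKM + 1, in which a scaling of the library nearly cancels. Pck2 mRNA stood above Pck1 mRNA at Day -2 (log2 ratio -4.14 ± 0.096, n = 3) and below it at every age from Day 1 on, up to a log2 ratio of 7.33 ± 0.153 at Day 20. At Day 0 the 3 mice were on both sides of equality, the lowest at -1.77 and mouse 1 the highest. For the aspartate pair the mean ratio was below equality at all 12 ages, with Got1 above Got2 in Day 0 mouse 1, and was -3.53 ± 0.126 at Day -2, -2.71 ± 0.254 at Day 3 and -0.09 ± 0.188 on Day 15, where the mice were again on both sides of equality. For the alanine pair the ratio of Gpt to Gpt2 was -1.49 ± 0.282 at Day -2 and went above equality at Day 1 (0.90 ± 0.418). It was near equality at Day 3 (-0.17 ± 0.225), highest at Day 15 (4.42 ± 0.519) and lower again at Day 60 (2.08 ± 0.147). The mean of the suckling ages was compared with that of the ages after weaning by a two-sided exact permutation test over age means (6 ages against 4, 210 splits), in which the change from age to age within suckling counts as spread. The difference was -0.55 for the carboxykinases (exact p = 0.519), -0.14 for the aspartate pair (exact p = 0.776) and -0.72 for the alanine pair (exact p = 0.476), with an adjusted p of 0.776 for each. Set against the spread between mice of 1 age, pooled over all ages and given without a test, the same differences had SEs of 0.36, 0.28 and 0.14, so that the alanine difference was several times its SE. The ratio of each of these pairs changed more within suckling than between these 2 groups of ages.

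**Figure D5:**
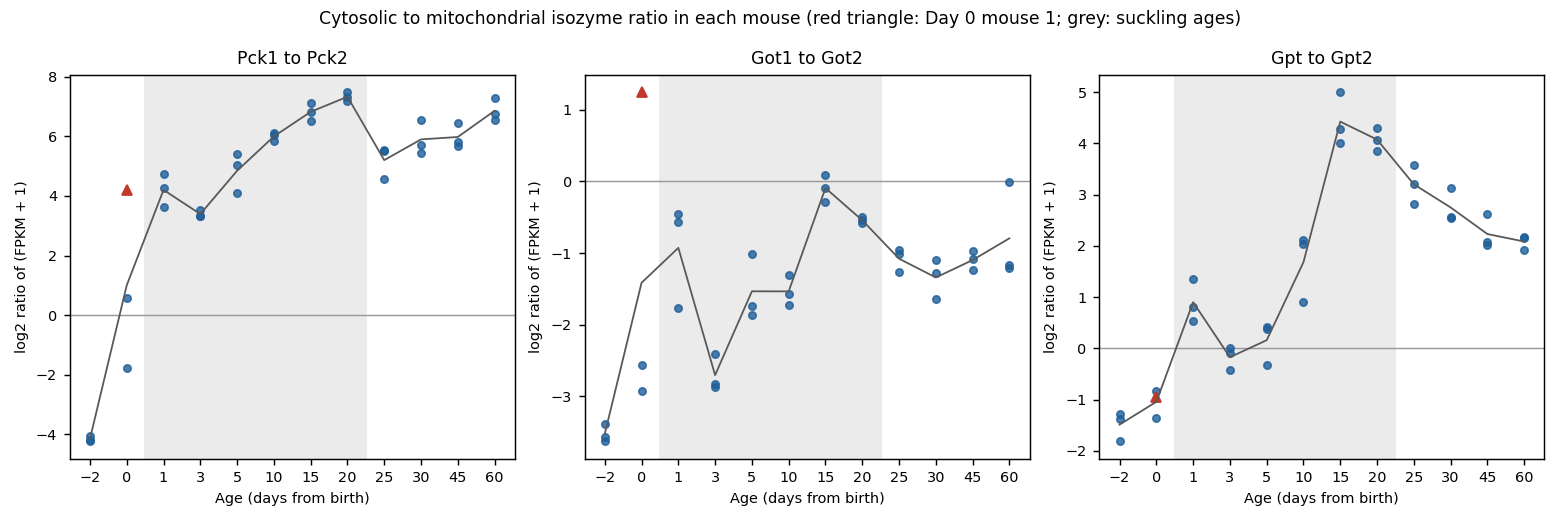
Log2 ratio of cytosolic to mitochondrial isozyme (FPKM + 1, y axis) in each mouse against age in days from birth (x axis, evenly spaced), with the mean of 3 mice as a line, Day 0 mouse 1 as a red triangle and the suckling ages in grey. The carboxykinase ratio runs from -4.14 at Day -2 to 7.33 at Day 20, and the alanine ratio peaks at 4.42 at Day 15.

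Over the 12 age means of log2(FPKM + 1), Pck1, G6pc and Fbp1 had similar courses, with Pearson's r of 0.96 for Pck1 with G6pc, 0.91 for Pck1 with Fbp1 and 0.96 for G6pc with Fbp1. Pck2 ran with Ldha (r = 0.88) and opposite to Gpt (r = -0.94). Gpt and Ldha were also opposed (r = -0.91). These are descriptions over age means of the same libraries, in which Day -2 lies far from the rest, and they carry no test. Outside the members, the nearest courses were those of the bilirubin glucuronosyltransferase Ugt1a1 (r = 0.97) and of haptoglobin (Hp, r = 0.96) for Pck1, and those of Hp and the phosphatidylethanolamine methyltransferase Pemt (r = 0.97 each) for G6pc. They were fibrinogen-like 1 (Fgl1) and Echdc2 (r = 0.98 each) for Fbp1, serum amyloid P (Apcs, r = 0.94) and Arrdc4 (r = 0.93) for Pcx, and transferrin (Trf, r = 0.92) and the tyrosine breakdown enzyme Fah (r = 0.86) for Got1. Pck2 was nearest to Micall2 and Ptp4a3 (r = 0.99 each), Got2 to the phosphomannomutase Pmm2 and the proline enzyme Prodh2 (r = 0.98 each), and Gpt to adenosine kinase (Adk) and the cytochrome P450 Cyp2c29 (r = 0.98 each). Gpt2 was nearest to the glutathione transferase Gstm1 (r = 0.98) and to Cyp2c38 (r = 0.96), and Ldha to Crip1 (r = 0.98) and Gng11 (r = 0.97). Ugt1a1, like Pck1, had its lowest mean at Day -2 (0.0422 FPKM) and its highest at Day 20 (164 FPKM).

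Further genes of the pathway came from lists by function, chosen with earlier results of these data known. Their counts are of genes that passed the test and are not independent support. Among 14 other aminotransferases, 9 were lower and 4 higher at Day -2 than at Day 60, where 18.6% of all genes tested were lower and 56.4% higher (median difference -1.95 over the list, 0.56 over all genes). Tat, which breaks down tyrosine, was 0.217 ± 0.069 FPKM against 309 ± 69.0 FPKM (-7.97 ± 0.58, adjusted p = 4.15e-13), while Psat1, which makes phosphoserine for serine synthesis, was 259 ± 15.2 against 0.596 ± 0.283 FPKM (7.36 ± 0.20, adjusted p = 4.66e-23). Over the first day, in which 23.7% of all genes rose and 7.88% fell, 7 of the 14 rose and 1 fell, led by Aadat (2.12 ± 0.18), an enzyme of lysine and kynurenine breakdown, and by Psat1 in the other direction (-2.01 ± 0.20). At weaning the cysteine conjugate lyase Ccbl1 rose from 10.5 ± 0.726 to 47.5 ± 5.11 FPKM (2.08 ± 0.16, adjusted p = 1.6e-10), and the glyoxylate enzyme Agxt fell from 265 ± 26.5 to 135 ± 25.7 FPKM.

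The list for the entry of amino acids into the pathway also held asparagine synthetase (Asns), which makes an amino acid. Of its 11 genes, 7 were lower and 2 higher at Day -2 than at Day 60 (18.6% and 56.4% of all genes, median difference -2.90 against 0.56), led by Sds (0.553 ± 0.214 against 91.2 ± 57.1 FPKM) and by Asns (203 ± 12.8 against 6.15 ± 4.29 FPKM). Psat1 and Asns, which make amino acids, had their highest mean at Day -2 as Pck2 did, and Tat and Sds, which consume them, their lowest. These genes were named as the extremes of their lists. In the same lists Aadat, Agxt and Ccbl1 were also lowest at Day -2. Proline dehydrogenase was lowest at Day 10 (0.77 FPKM against 1.59 FPKM at Day -2), and ornithine aminotransferase (Oat) at Day 0 (13.7 FPKM against 24.3 FPKM). Asns and Hk1 also had the dip at Day 1 and return at Day 3 seen in Pck2 and in the erythroid markers, at 45.4 and 66.3 FPKM for Asns and 17 and 26.5 FPKM for Hk1. From early to late suckling proline dehydrogenase (Prodh) rose by 3.48 ± 0.19 (adjusted p = 5.64e-16) and Asns fell by 3.23 ± 0.18 on the log2 scale (adjusted p = 2.05e-15). In that comparison 5 of the 11 rose and 2 fell, or 9 and 2 with a common upper quartile, while 8.31% of all genes rose and 66.1% fell (median 0.26 against -0.45). Between Day 20 and Day 25 0 of the 11 passed the limma test, and 1, as a fall, did so with a common upper quartile or at an unadjusted p under 0.05.

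Of 8 genes for the entry of lactate and glycerol, 7 rose over the first day of suckling and 1 fell, beside 23.7% and 7.88% of all genes (median 1.29 against 0.19). Lactate dehydrogenase B (Ldhb), among those that rose, was uneven at Day 1 (9.26 ± 8.46 FPKM, against 2.42 ± 0.485 FPKM at Day 0). Kidney markers were high in Day 1 mouse 2, and their part in this level was not tested. Glycerol kinase (Gyk), which phosphorylates glycerol for its entry into the pathway, went from 2.96 ± 1.10 to 15.5 ± 4.25 FPKM (2.06 ± 0.33, adjusted p = 2.99e-05). The glycerol channel Aqp9 rose at birth from 4.09 ± 0.393 to 25.1 ± 3.15 FPKM (2.35 ± 0.20, adjusted p = 2.16e-10), and at weaning it fell from 128 ± 2.08 to 68.5 ± 10.5 FPKM (adjusted p = 0.00368). D-lactate dehydrogenase (Ldhd) rose at weaning, from 2.47 ± 0.227 to 6.47 ± 0.724 FPKM (adjusted p = 1.63e-05). Of 10 mitochondrial carriers and shuttle enzymes, 7 rose over the first day and 0 fell by limma, also at an unadjusted p under 0.05 (23.7% and 7.88% of all genes, median 0.92 against 0.19), led by the dicarboxylate carrier Slc25a10 (12.3 ± 2.51 to 42.9 ± 3.44 FPKM). The citrate carrier Slc25a1, which supplies fatty acid synthesis, was the carrier that rose at weaning, from 55.2 ± 3.68 to 151 ± 26.1 FPKM.

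The glucose 6-phosphatase system held 3 further genes. The glucose 6-phosphate transporter Slc37a4, which works with G6pc, rose at birth from 30.7 ± 3.33 to 143 ± 23.8 FPKM (2.18 ± 0.20, adjusted p = 1.36e-09), while the widely expressed phosphatase G6pc3 was highest before birth and 1.78 ± 0.13 above Day 60 there (adjusted p = 2.69e-13). The glucose transporter Slc2a2 was 17.1 ± 3.47 FPKM at Day -2 against 54.7 ± 16.9 FPKM at Day 60 (adjusted p = 0.000165). Among the 10 enzymes that serve glycolysis and gluconeogenesis in both directions, 3 fell and 2 rose over the first day, or 6 and 1 with a common upper quartile, where 7.88% of all genes fell and 23.7% rose (median -0.37 against 0.19), led by the mutase Pgam1 (148 ± 23.7 to 60.6 ± 0.777 FPKM). Aldoa, the aldolase typical of muscle and embryo, was 222 ± 39.6 FPKM at Day -2 against 41.3 ± 2.91 FPKM at Day 60. At weaning 3 of these enzymes rose and 0 fell by limma, also at an unadjusted p under 0.05 (3.94% and 3.26% of all genes), the largest rise being that of triose phosphate isomerase (Tpi1, 178 ± 7.02 to 321 ± 56.7 FPKM).

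The list of glycolytic and pyruvate enzymes held enzymes that oppose gluconeogenesis and also pyruvate dehydrogenase kinases, which spare pyruvate for it. Of its 10 tested genes, 6 fell over the first day and 0 rose by limma (7 and 1 at an unadjusted p under 0.05), beside 7.88% of all genes falling and 23.7% rising (median -1.02 against 0.19). Liver pyruvate kinase (Pklr) went from 94.3 ± 4.74 to 22.5 ± 12.1 FPKM (-2.15 ± 0.31, adjusted p = 7.49e-06). Pklr, which red cells also express, was back at 95.0 ± 12.6 FPKM at Day 3. The erythroid markers also dipped at Day 1 but returned only in part (medians of 1770, 734 and 1310 FPKM at Days 0, 1 and 3), and their part in the fall of Pklr was not tested. In late gestation hexokinase 1 (Hk1) was 72.4 ± 12.3 FPKM, against 1.13 ± 0.106 FPKM at Day 60. At weaning 0 of the 10 passed the limma test in either direction, also at an unadjusted p under 0.05.

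Of 17 tested regulators of these genes, 8 were lower and 4 higher at Day -2 than at Day 60, or 9 and 2 with a common upper quartile, where 18.6% of all genes were lower and 56.4% higher (median -0.49 against 0.56). The glucagon receptor Gcgr was 7.65 ± 1.24 against 79.3 ± 6.86 FPKM (-3.22 ± 0.19, adjusted p = 2.13e-15), and the insulin receptor substrate Irs2 was 3.80 ± 1.54 against 0.578 ± 0.163 FPKM (1.56 ± 0.41, adjusted p = 0.00116). The liver CREB-family factor Creb3l3 rose over the first day from 62.3 ± 12.0 to 154 ± 12.2 FPKM (1.30 ± 0.16, adjusted p = 4.52e-07). Klf15, a factor known for driving amino acid breakdown, rose from early to late suckling by 1.21 ± 0.11 (adjusted p = 1.6e-10) and fell at weaning from 22.5 ± 1.69 to 8.74 ± 2.09 FPKM (-1.29 ± 0.18, adjusted p = 6.84e-06), as Pck1 did. At weaning 2 of the 17 fell and 0 rose by limma (4 and 1 at an unadjusted p under 0.05), beside 3.26% and 3.94% of all genes.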

How the data were processed

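The authors deposited 1 FPKM value per gene symbol and mouse, on a linear scale and without read counts. Per the labels, poly(A) libraries were made with a kit that does not mark strand, and the submitters' processing notes name TopHat 1.2.0, Cufflinks 1.0.3 and mm9. Transcripts of overlapping or antisense genes can therefore share reads. The sources used here name no further scaling of the libraries. Values were transformed to log2(FPKM + 1), and the 11149 symbols whose mean reached 1 FPKM at some age were fitted with limma 3.58.1 (R 4.3.3), with 1 mean per age over 36 mice and variances that follow mean expression. There were 7 comparisons between ages, each adjusted by Benjamini-Hochberg over all genes, and 11 with Day 60, adjusted together, at a threshold of 0.05. Isozyme ratios were tested by exact permutation over age means. Python 3.11.15 with scipy 1.17.1 served for these, and the fits were tested on simulated data. The labels do not say whether the replicate numbers mark litters or days.

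All 10 members are named. From each list the largest rise and fall past the threshold were named, a rule extended, after values were seen, to birth and to late against early suckling, and for each member the 2 genes with the highest correlation over age means. The members and lists were chosen with earlier results of these data known, so no list count is independent support. Alternatives were a pseudocount of 0.1, no filter or one at 5 FPKM, a common upper quartile, libraries scaled to sum to 1000000 (TPM), a block for the replicate number, variances without the trend, Dunnett's comparison and each mouse left out. The lists were also counted under both scalings and without Day 0 mouse 1, and isozyme ratio differences were given an SE from mice of 1 age, both added after seeing the data. Gene positions are those of GENCODE M1 (NCBI37/mm9), and promoter windows are RefSeq on GRCm38.p6. Isoforms and proteins were not analysed here, and some genes that the naming rule selects are not reported here.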

Additional observations from a re-analysis of the deposited data

How the results depend on the processing

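With 3 mice an age, 1 mouse can decide a call. The common upper quartile moved the median of all genes by as much as -0.43 (Day -2 against Day 60) and 0.42 (late against early suckling). Larger differences also lost their calls under it, such as that of Pck1 for suckling against after weaning (1.03 to 0.62). Each of the 10 members departed from its Day 60 level at some age under every alternative run, Dunnett's comparison included.

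The count of members that fell at weaning was 1 and became 2, by the addition of Pck2, with a pseudocount of 0.1, a filter at 5 FPKM, a common upper quartile, a sum of 1000000 or no mean-variance trend. Without a filter Pck2 passed and Pck1 did not (adjusted p = 0.0531). The replicate block also gave 2, and it left every other count of members within 1.5 times. Same-numbered mice of different ages had a mean correlation of 0.098 (lowest -0.68, 104 of 198 pairs over 0.1), against -0.048 and 147 of 396 for different-numbered mice. The labels name no shared litter or day, and the numbers were not taken to pair the mice in the main fit. Whether same-numbered mice share a litter or day was not tested. With a common upper quartile, 3 members in place of 7 were higher during suckling than after weaning. With a sum of 1000000, 1 in place of 2 fell over the first day, Ldha being the gene lost. With each mouse left out in turn, the count ranged from 0 to 2 for falls at weaning, 1 to 4 for rises over the first day, 1 to 2 for falls over the first day and 0 to 1 for falls at birth. The causes of these shifts were not tested.

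Among called differences, direction turned only for Got2 in suckling against after weaning, with a common upper quartile. With a common upper quartile, Pck2 (0.047) and Gpt2 (0.030) at birth, Got2 from early to late suckling (0.55), Got1 (-0.14) and Got2 (-0.0001) for suckling against after weaning and Got2 for Day -2 against Day 60 (-0.56) changed sign, as did, with a sum of 1000000, Pcx over the first day (0.065) and Got2 for early to late suckling (0.050) and for Day -2 against Day 60 (-0.058). With 1 mouse left out, the first-day difference ranged from -0.59 to 0.61 for G6pc, -0.13 to 0.065 for Pcx and -0.021 to 2.08 for Got1, and that of Got2 for Day -2 against Day 60 from -0.017 to 0.092. The isozyme ratio tests over age means were rerun with a pseudocount of 0.1, with age medians and with each mouse of the compared ages left out. They passed the threshold in none of these runs. The scalings, the filters and a test with the replicate block were not run for the ratios.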
